A study of Mus musculus with 4 samples.

Results

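The genes described here are 9 genes of the vascular endothelium of the testis and the growth factor gene *Vegfa*. The 9 are the receptor genes *Kdr*, *Flt1*, *Tek* and *Tie1*, the co-receptor gene *Eng* and the adhesion genes *Cdh5* and *Pecam1*. They also include the surface and secreted markers *Emcn* and *Vwf*. The 10 genes were picked by symbol, by a rule that uses no measured value but was set with earlier results of these data known. All 10 were found among the 55820 loci of the expression table. RNA sequencing covered whole testes of male C57BL/6J mice at postnatal day 10 (P10), with 2 libraries from mice labelled control and 2 from Mps1sKO mice, in which *Stra8*-Cre deletes floxed *Mps1* (*Ttk*) in germ cells. The alleles carried by the control mice are not stated in the labels, and neither is whether each library came from 1 mouse, so p-values measure the spread between these libraries. *Stra8*-Cre acts in spermatogonia and early spermatocytes, and endothelial cells are not its target. The comparison asks whether the RNA of these vascular genes differed between the genotypes.

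Endothelial cells line blood vessels, and in the testis the vessels run in the interstitium between the seminiferous tubules. VEGF-A is a secreted growth factor that other cells release and endothelial cells read through the tyrosine kinase receptors encoded by *Kdr* and *Flt1*. *Tek* and *Tie1* encode the receptors of the angiopoietin system, which steadies the vessel wall, and *Eng* encodes endoglin, a co-receptor for BMP ligands. The product of *Cdh5*, VE-cadherin, and that of *Pecam1* hold endothelial cells together, *Emcn* encodes a surface sialomucin of capillaries and veins, and *Vwf* encodes a clotting factor that endothelial cells store.

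The counts of the libraries summed to between 23311689 and 28607746, and 20561 loci, all 10 vascular genes among them, passed the low-count filter of edgeR. Levels are given as normalized read counts scaled by edgeR's TMM method (CPM) where genotypes are compared, and as the deposited FPKM, which divide by gene length, where genes are compared. The deleted gene, *Ttk*, was at 27.9 and 32.6 CPM in control and at 13.0 and 12.2 CPM in Mps1sKO testes, a log2 fold change of −1.26 with a standard error (SE) of 0.129 and an adjusted p of 0.0461 in edgeR. Its adjusted p lay above 0.05 in 5 of 8 alternative fits to all libraries, at 0.0504 to 0.224. It was 0.0387 in edgeR with library totals only, 1.1e-14 in edgeR with no filter on low counts and 9.8e-09 with DESeq2. With single libraries left out, the log2 fold change lay between −1.37 and −1.15. In whole-testis RNA, fewer cells of a type and less RNA per cell cannot be told apart.

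None of the 10 vascular genes was called different between Mps1sKO and control testes. By the quasi-likelihood F test of edgeR, which is two-sided, with Benjamini-Hochberg adjustment over all tested loci, 0 of the 10 had an adjusted p below 0.05, and their adjusted p ranged from 0.536 to 0.993. The same rule called 0.0292% of all tested loci. At an unadjusted p below 0.05, 1 of the 10 was higher in Mps1sKO testes, *Eng*, and 0 were lower, where 3.92% of all tested loci were higher and 5.37% were lower by this rule. DESeq2 gave 0 of the 10 by either rule. The log2 fold changes of 9 genes were above 0, against 50.1% of all tested loci, and only that of *Pecam1* was below. Their median was 0.11, which is 1.08-fold, against 0.00027 over all tested loci, and it was 0.072 without control replicate 2.

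Both Mps1sKO libraries lay above both control libraries for 4 of the 10 genes, *Vegfa*, *Eng*, *Cdh5* and *Emcn*, against 20.3% of all tested loci, and below them for 0 genes, against 21.1%. For the other 6 genes the libraries of the genotypes overlapped. For 7 of the 10 genes, the libraries of 1 genotype differed from each other by more, on the log2 scale, than the genotypes did. The exceptions were *Eng*, *Cdh5* and *Emcn*. The 95% intervals of the fold changes together reached from 0.752-fold to 1.54-fold.

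**Figure D1:**
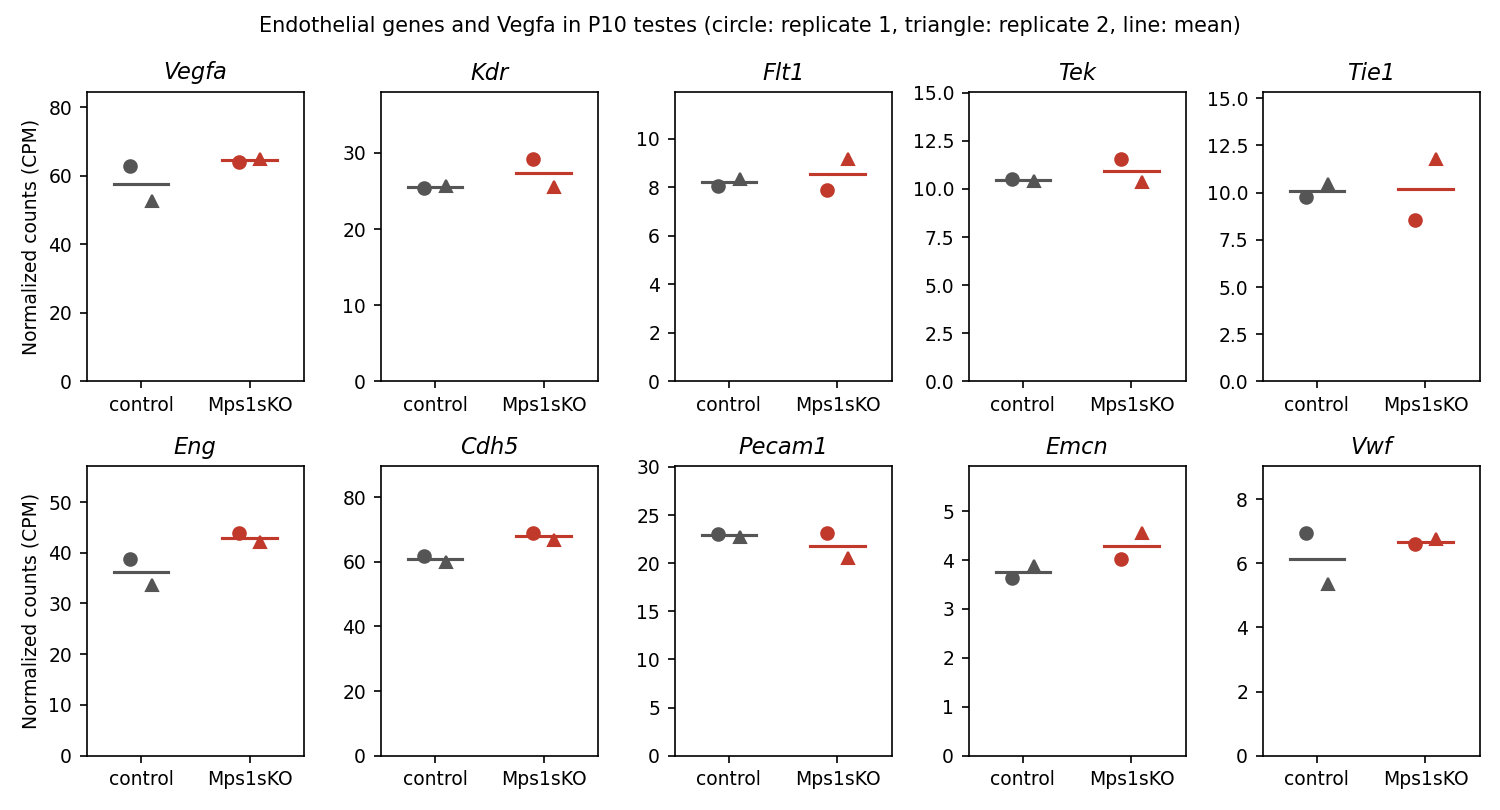
Normalized counts (CPM, from 0) of each of the 10 genes in the 2 control and 2 Mps1sKO libraries, with circles for replicate 1, triangles for replicate 2 and a line at each mean. The libraries of the genotypes lie close together in every panel, and those of *Vegfa*, *Eng*, *Cdh5* and *Emcn* do not overlap.

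*Vegfa* (ENSMUSG00000023951; chromosome 17 from 46016993 to 46032369, GRCm38) encodes the growth factor that endothelial cells respond to. Its level was 62.8 and 52.5 CPM in control and 64.0 and 64.9 CPM in Mps1sKO testes. The Mps1sKO libraries agreed closely, and the higher control library lay just below them. The log2 fold change was 0.16 (SE 0.110, edgeR adjusted p = 0.662), with an interval from 0.937-fold to 1.34-fold. Without control replicate 2, the lower of the control libraries, the log2 fold change was 0.036.

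*Kdr* (ENSMUSG00000062960; chromosome 5 from 75932827 to 75978458) encodes the main signalling receptor for VEGF-A. It was at 25.4 and 25.7 CPM in control testes and at 29.2 and 25.5 CPM in Mps1sKO testes. Only Mps1sKO replicate 1 stood above the other libraries, and the log2 fold change was 0.10 (SE 0.114, edgeR adjusted p = 0.815). *Flt1* (ENSMUSG00000029648; chromosome 5 from 147561604 to 147726011) encodes a receptor that binds VEGF-A tightly and limits the amount that reaches *Kdr*'s product. It was at 8.06 and 8.36 CPM in control and at 7.90 and 9.18 CPM in Mps1sKO testes, so that the Mps1sKO libraries lay on both sides of the control libraries. Its log2 fold change was 0.059 (SE 0.156, edgeR adjusted p = 0.932). Counts pool all transcripts of a gene, 6 for *Flt1* in GENCODE M21, so the soluble and the membrane form of this receptor were not separated. Per gene length, *Kdr* stood 4.72 and 4.60 times above *Flt1* in control and 5.53 and 4.15 times above it in Mps1sKO libraries, and these ratios overlapped.

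*Tek* (ENSMUSG00000006386; chromosome 4 from 94739289 to 94874976) encodes the angiopoietin receptor TIE2, and *Tie1* (ENSMUSG00000033191; chromosome 4 from 118471191 to 118490061) its partner without a well-defined angiopoietin ligand. *Tek* was at 10.5 and 10.4 CPM in control and at 11.6 and 10.3 CPM in Mps1sKO testes. *Tie1* was at 9.77 and 10.4 CPM in control and at 8.55 and 11.8 CPM in Mps1sKO testes. The Mps1sKO libraries thus spanned the control libraries for both genes, and *Tie1* had the widest gap of the 10 genes between 2 libraries of 1 genotype, 0.46 on the log2 scale. The log2 fold change of *Tek* was 0.066 (SE 0.141, edgeR adjusted p = 0.912). That of *Tie1* was 0.012 (SE 0.182, edgeR adjusted p = 0.993), and its sign depended on the scaling and on the libraries used. The ratio of *Tek* to *Tie1*, in FPKM, was 1.12 and 1.04 in control and 1.41 and 0.915 in Mps1sKO libraries.

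The start regions of *Kdr*, *Flt1* and *Tek* are shown because proteins of the ETS family, among them ERG and FLI1, bind the core GGAA in front of many endothelial genes, and the RNA of both factors was measured in the same libraries. The sequences are those of RefSeq on GRCm38.p6, 5′ to 3′ on the strand of the gene, from 150 to 11 bases before the start of transcription. They lie at chr5:75978466-75978605 on the minus strand (*Kdr*), chr5:147726022-147726161 on the minus strand (*Flt1*) and chr4:94739139-94739278 on the plus strand (*Tek*). Capitals mark the core GGAA or its reverse complement TTCC.
Kdr: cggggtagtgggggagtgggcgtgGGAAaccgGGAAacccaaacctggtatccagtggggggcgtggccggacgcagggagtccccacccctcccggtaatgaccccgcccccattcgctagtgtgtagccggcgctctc
Flt1: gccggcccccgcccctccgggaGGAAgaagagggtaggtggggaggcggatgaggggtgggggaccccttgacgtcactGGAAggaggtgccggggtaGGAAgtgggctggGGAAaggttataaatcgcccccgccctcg
Tek: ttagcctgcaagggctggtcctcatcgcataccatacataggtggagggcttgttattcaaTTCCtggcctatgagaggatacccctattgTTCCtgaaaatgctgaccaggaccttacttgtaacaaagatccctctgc
These stretches held 2 matches in *Kdr*, 4 in *Flt1* and 2 in *Tek*. The stretch of *Flt1* also holds TATAAA, and that of *Tek* the SOX motif ACAAAG near its end.

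RefSeq start windows of 300 bases were available for 7 of the 10 genes, as 8 windows, and not for *Pecam1*, *Cdh5* and *Vwf*. Each strand was searched, and overlapping matches were counted. All 8 windows held GGAA, with 2 to 9 matches each, but so did 96.0% of the 32851 windows of all genes, which held a median of 3. The longer ETS motif CCGGAAGT was in 0 of the 8 windows and in 3.89% of all. The SOX motif ACAAAG was in 2 of the 8 and in 18.7% of all, and TATAAA was in 1 of the 8 and in 13.6% of all. The hypoxia motif ACGTG was in 1, the second window of *Vegfa*, and in 19.6% of all. These matches describe the sequence in the windows only.

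*Eng* (ENSMUSG00000026814; chromosome 2 from 32646595 to 32682669) encodes endoglin and had the highest fold change of the 10 genes. It was at 38.7 and 33.7 CPM in control and at 43.9 and 42.1 CPM in Mps1sKO testes. Both Mps1sKO libraries were higher than both control libraries. The log2 fold change was 0.25, with a standard error of 0.107 and an interval from 1.00-fold to 1.41-fold. The unadjusted p was 0.0486 and the adjusted p was 0.536, both from edgeR. Without control replicate 2 the log2 fold change was 0.15, with an unadjusted p of 0.360 from edgeR. The unadjusted p also lay above 0.05 with each Mps1sKO library left out, with DESeq2, with library totals alone, with at least 10 counts required in every library and with the replicate number as a block. *Fpgs*, a gene on the opposite strand, shares 61 bases of exon with *Eng*, which is 1.51% of its exons, and its log2 fold change was −0.073 (unadjusted p = 0.489 from edgeR).

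*Cdh5* (ENSMUSG00000031871; chromosome 8 from 104101625 to 104144511) encodes VE-cadherin, the adhesion protein of endothelial junctions. It was at 61.9 and 59.9 CPM in control and at 68.9 and 66.8 CPM in Mps1sKO testes. The replicates of each genotype differed by less than 0.05 on the log2 scale, and the genotypes did not overlap. The log2 fold change of 0.16 (SE 0.0886, edgeR adjusted p = 0.615) had an interval from 0.966-fold to 1.29-fold, the narrowest of the 10 genes. The antisense locus *Gm29682* lies within *Cdh5* without sharing exon bases. It had 13 and 10 counts in control and 20 and 26 counts in Mps1sKO testes, a log2 fold change of 1.14 (unadjusted p = 0.0182 from edgeR). This locus was named after its values were seen. The strand setting is not given, so its few reads cannot be told apart from reads of *Cdh5* at the same place. *Pecam1* (ENSMUSG00000020717; chromosome 11 from 106654217 to 106750628) encodes an adhesion protein of endothelial cells, platelets and leukocytes. It was at 23.1 and 22.7 CPM in control and at 23.1 and 20.5 CPM in Mps1sKO testes. Mps1sKO replicate 1 was level with the control libraries and replicate 2 was below them, with a log2 fold change of −0.069 (SE 0.116, edgeR adjusted p = 0.878). The FPKM ratio of *Cdh5* to *Pecam1* was 3.98 and 3.91 in control and 4.41 and 4.82 in Mps1sKO testes, so that the groups did not overlap. This ratio was looked at after the values of both genes were seen and has no test.

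*Emcn* (ENSMUSG00000054690; chromosome 3 from 137341067 to 137432185), the sialomucin gene, was at 3.64 and 3.88 CPM in control and at 4.01 and 4.55 CPM in Mps1sKO testes. With 93 to 122 counts in a library it was the gene with the fewest counts of the 10, and its interval was the widest, from 0.841-fold to 1.54-fold around a log2 fold change of 0.19 (SE 0.188, edgeR adjusted p = 0.777). The log2 fold change was 0.093 without Mps1sKO replicate 2 and 0.27 without Mps1sKO replicate 1. *Vwf* (ENSMUSG00000001930; chromosome 6 from 125546774 to 125686679), the von Willebrand factor gene, was at 6.94 and 5.34 CPM in control and at 6.60 and 6.75 CPM in Mps1sKO testes. The control libraries were the highest and the lowest of the 4, and the log2 fold change was 0.12 (SE 0.185, edgeR adjusted p = 0.859).

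**Figure D2:**
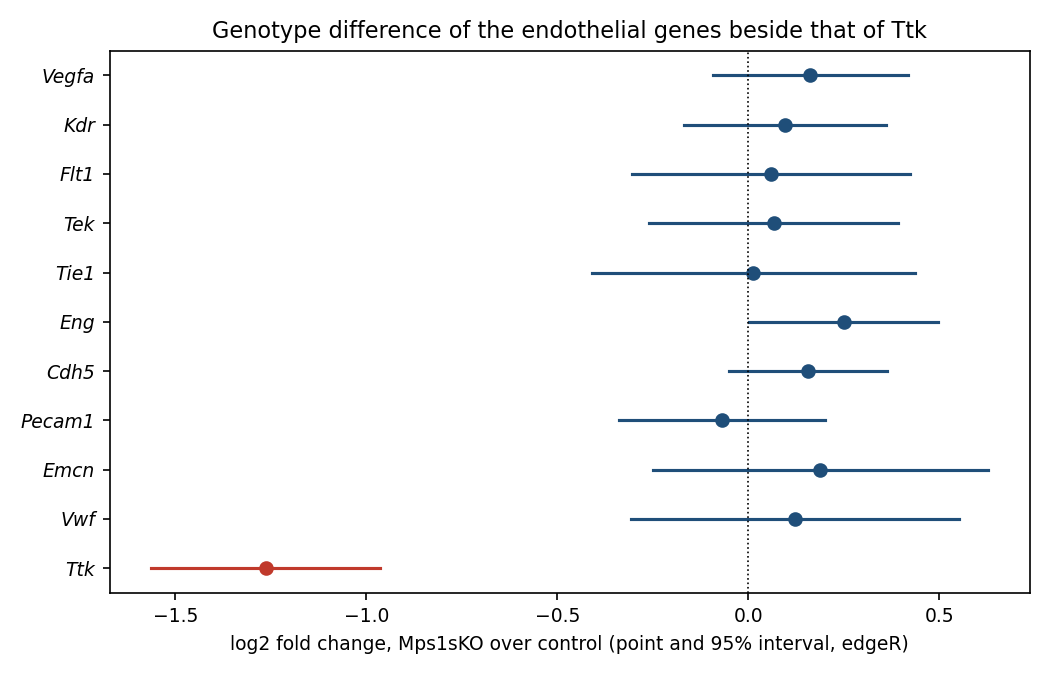
Log2 fold change of Mps1sKO over control (horizontal axis) for each of the 10 genes and for *Ttk*, as the edgeR estimate (point) with its 95% interval (line). The points of the 10 genes lie between −0.07 and 0.25, every interval but that of *Eng* includes 0, and *Ttk* lies apart at −1.26.

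Per gene length, the 10 genes spanned a 38.4-fold range of levels. *Cdh5* had a mean of 15.2 FPKM over the 4 libraries and *Vegfa* one of 14.2, and their ranges overlapped. *Eng* followed at 9.73 FPKM, *Pecam1* at 3.57, *Kdr* at 2.91, *Tek* at 2.26 and *Tie1* at 2.05. The lowest were *Emcn* at 0.740, *Flt1* at 0.617 and *Vwf* at 0.397 FPKM. Of the neighbours in this order, *Cdh5* and *Vegfa*, *Tek* and *Tie1*, and *Emcn* and *Flt1* had ranges over the 4 libraries that overlapped, and the others did not. Among all tested loci, *Cdh5* stood at the 79.5th percentile and *Vwf* at the 13.0th percentile of mean FPKM. *Cdh5* alone made up between 40.1% and 40.9% of the summed FPKM of the 9 genes other than *Vegfa* in each library. That sum was 36.4 and 34.8 FPKM in control and 39.9 and 38.9 FPKM in Mps1sKO testes. In raw counts, the 10 genes together took 0.0252% and 0.0235% of control libraries and 0.0266% and 0.0260% of the Mps1sKO libraries.

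**Figure D3:**
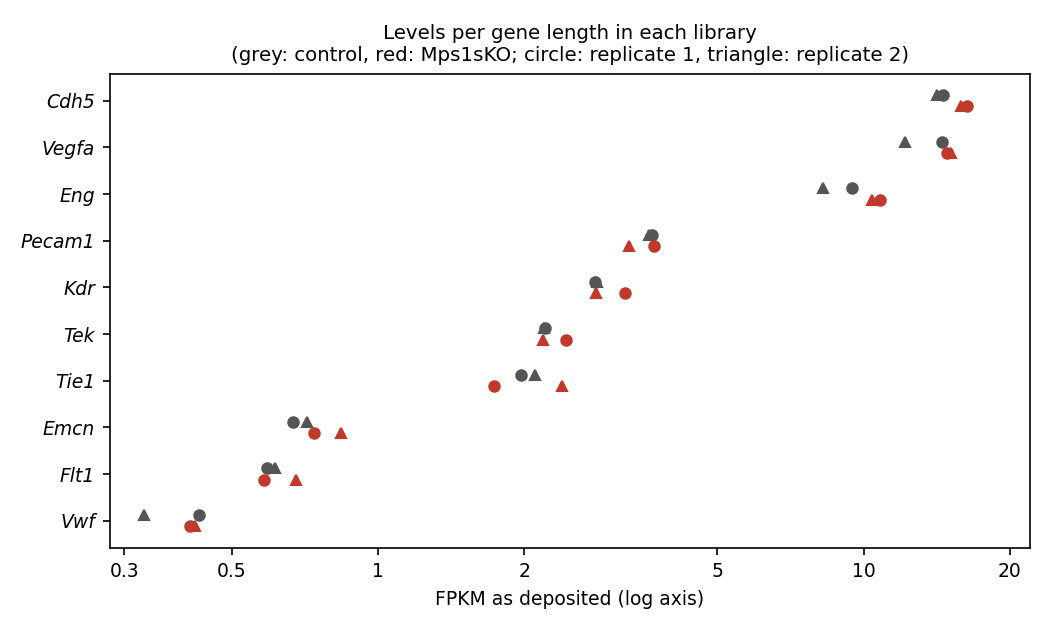
Deposited FPKM (horizontal log axis) of the 10 genes, ordered by their mean, with 1 point for each library (grey for control, red for Mps1sKO). *Cdh5*, *Vegfa* and *Eng* lie above 8 FPKM in every library, and *Emcn*, *Flt1* and *Vwf* below 1 FPKM.

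Other genes were described through 9 lists, 8 of vascular pathways and cells and 1 of genes of the hypoxia response, with 94 genes, of which 89 were tested. Of these, 52 had a log2 fold change above 0 and 37 below, with a median of 0.054. None had an adjusted p below 0.05, and the lowest was 0.494. At an unadjusted p below 0.05, 5 were higher, which is 5.62% of them, and 3 were lower, which is 3.37%, against 3.92% and 5.37% of all tested loci. With DESeq2 4 genes had an unadjusted p below 0.05, and with the replicate number as a block 3. Over all loci the number was 1912 of 20561 in the main fit. It was 1129 of 35262 with DESeq2 and 1039 of 20561 with the replicate block. The medians of the lists depended on single libraries. Without control replicate 2 it was 0.063 for the VEGF list, −0.015 for the endoglin list, −0.0051 for the Notch list and 0.14 for the lymphatic list. Without control replicate 1 it was −0.0019 for the junction list and 0.011 for the transcription factors. Without Mps1sKO replicate 1 it was 0.035 for the VEGF list and 0.26 for the lymphatic list, and without Mps1sKO replicate 2 it was −0.044 for the Notch list. When single libraries were omitted, the lymphatic median ranged from −0.58 to 0.26, the VEGF median from −0.21 to 0.063, the endoglin median from −0.015 to 0.27 and the transcription factor median from −0.23 to 0.011. The junction median ranged from −0.0019 to 0.099 and the Notch median from −0.044 to 0.12. The medians above 0 throughout ranged from 0.055 to 0.21 (angiopoietins, highest without Mps1sKO replicate 1), from 0.13 to 0.24 (pericytes, highest without control replicate 1) and from 0.020 to 0.20 (hypoxia, lowest without control replicate 2 and highest without Mps1sKO replicate 1).

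Among 7 further VEGF ligands and receptors, the median log2 fold change was −0.026 and none had an unadjusted p below 0.05. *Vegfb*, a related ligand, was at 17.9 ± 2.77 CPM in control and 17.6 ± 2.73 CPM in Mps1sKO testes (SD, n = 2 each). *Nrp1*, the co-receptor neuropilin, was at 40.8 ± 2.97 and 45.5 ± 6.43 CPM (SD, n = 2 each). *Vegfc*, a ligand of lymphatic vessels, was at 1.67 and 1.80 CPM in control and 0.949 and 1.60 CPM in Mps1sKO testes, below both control libraries in each case, with a log2 fold change of −0.43 (SE 0.310, edgeR adjusted p = 0.681). The FPKM of *Vegfa* stood 1.18 and 1.23 times above that of *Vegfb* in control and 1.53 and 1.25 times above it in Mps1sKO libraries. These ratios did not overlap between genotypes and have no test. The FPKM ratio of *Vegfa* to *Kdr* was 5.20 and 4.31 in control and 4.62 and 5.38 in Mps1sKO libraries, and the genotypes overlapped.

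Around the TIE receptors, 6 genes were tested, and the median log2 fold change was 0.065. *Ptprb* encodes the vascular phosphatase that takes phosphate off TIE2. It was at 15.2 and 14.6 CPM in control and at 19.8 and 17.8 CPM in Mps1sKO testes, a log2 fold change of 0.34 (SE 0.124). Its libraries did not overlap between genotypes, and its unadjusted p of 0.0276 gave an adjusted p of 0.512 from edgeR. *Angpt2*, the ligand that endothelial cells themselves make, was at 7.28 ± 0.150 and 8.17 ± 1.00 CPM (SD, n = 2 each). Its FPKM stood 8.26 and 7.68 times above that of *Angpt1*, the ligand made by the cells around the vessel, in control and 7.63 and 7.46 times above it in Mps1sKO libraries. These ratios did not overlap, and they have no test. *Foxo1*, a transcription factor restrained by this pathway, was at 72.2 ± 1.93 and 70.3 ± 6.79 CPM (SD, n = 2 each), and *Dok2*, an adaptor of TIE2, at 7.88 ± 0.480 and 7.38 ± 1.41 CPM (SD, n = 2 each).

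The endoglin and ALK1 list had 9 tested genes, 7 of them with a log2 fold change above 0 and a median of 0.12. The endothelial BMP ligands *Bmp10* and *Gdf2*, which reach vessels through the blood, had at most 1 count in a library and were not tested. *Acvrl1*, which encodes the receptor ALK1 that endoglin assists, was at 61.6 and 47.2 CPM in control and at 58.1 and 72.3 CPM in Mps1sKO testes, and the groups overlapped. *Bmpr2*, its partner receptor, was at 136 ± 2.91 and 156 ± 14.9 CPM (SD, n = 2 each; adjusted p = 0.583 from edgeR). *Smad1*, which carries the signal to the nucleus, was at 30.2 ± 1.99 and 26.5 ± 1.07 CPM (SD, n = 2 each; adjusted p = 0.619 from edgeR). The target genes of the pathway *Id1* and *Id3* had log2 fold changes of 0.11 and 0.12, and their libraries overlapped. The FPKM ratio of *Eng* to *Acvrl1* was 0.661 and 0.752 in control and 0.795 and 0.614 in Mps1sKO libraries, and the genotypes overlapped.

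Of 22 junction and surface genes 21 were tested, 11 above and 10 below 0, and the median log2 fold change was 0.026. *Jam2*, a junction adhesion gene, was at 179 and 160 CPM in control and at 212 and 209 CPM in Mps1sKO testes. Its log2 fold change was 0.31 (SE 0.0923, unadjusted p = 0.0104 and adjusted p = 0.494, both from edgeR). Its mean level was 31.3 FPKM, against 15.2 FPKM for *Cdh5*, and the source cells of this RNA were not tested. *Aplnr*, the apelin receptor gene of veins, was at 6.91 and 6.24 CPM in control and at 10.1 and 7.80 CPM in Mps1sKO testes, a log2 fold change of 0.44 (SE 0.182, unadjusted p = 0.0423 and adjusted p = 0.528, both from edgeR). For both genes the genotypes did not overlap. *Mcam*, at 46.4 FPKM the most abundant gene of the list, was at 159 ± 4.40 and 154 ± 17.7 CPM (SD, n = 2 each), and it is also expressed in smooth muscle.

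The endothelial transcription factor list held 13 tested genes, 4 above and 9 below 0, and the median log2 fold change was −0.076. *Erg* encodes an ETS factor that sustains the expression of *Cdh5* and other endothelial genes. It was at 30.4 and 32.3 CPM in control and at 26.0 and 22.4 CPM in Mps1sKO testes, and the groups did not overlap. The log2 fold change was −0.38 (SE 0.117, unadjusted p = 0.0129 and adjusted p = 0.494, both from edgeR). *Fli1*, the related ETS factor gene, was at 4.49 and 4.65 CPM in control and at 3.11 and 3.21 CPM in Mps1sKO testes, a log2 fold change of −0.53 (SE 0.185, unadjusted p = 0.0215 and adjusted p = 0.505, both from edgeR). The log2 fold changes of *Erg* and *Fli1* were below 0, and those of 9 of the 10 vascular genes were above 0. None of these differences passed the adjusted threshold, and a link between them was not tested. *Sox18*, a SOX factor gene of developing vessels, was at 17.9 and 11.03 CPM in control and at 18.2 and 24.4 CPM in Mps1sKO testes, with an unadjusted p of 0.0468 and an adjusted p of 0.532 from edgeR. Its control libraries differed by more than the nearest libraries of the 2 genotypes did. *Epas1*, which encodes a hypoxia factor of endothelial cells, was at 116 ± 9.68 and 132 ± 9.24 CPM (SD, n = 2 each), and *Klf4* at 36.4 ± 3.18 and 32.7 ± 1.74 CPM (SD, n = 2 each).

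In the arterial and venous Notch list, 7 of 11 genes lay above 0, and the median log2 fold change was 0.046. *Hey1*, a target of Notch in arteries, was at 12.6 and 10.96 CPM in control and at 9.32 and 9.18 CPM in Mps1sKO testes, a log2 fold change of −0.35 (SE 0.145, unadjusted p = 0.0451 and adjusted p = 0.529, both from edgeR). *Notch4*, the endothelial Notch receptor gene, was at 8.73 and 8.53 CPM in control and at 10.2 and 10.6 CPM in Mps1sKO testes (unadjusted p = 0.0944 from edgeR). The log2 fold change of *Notch4* was 0.27. Neither gene had an adjusted p below 0.05, and a link between them was not tested. *Nr2f2* and *Ephb4*, listed here as venous genes, had log2 fold changes of 0.11 and −0.038, and the source cells of their RNA were not tested.

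Of 4 lymphatic genes 2 were tested. *Lyve1* was at 5.05 and 6.62 CPM in control and at 3.67 and 6.68 CPM in Mps1sKO testes, and *Prox1* at 1.52 and 2.11 CPM in control and at 1.29 and 2.28 CPM in Mps1sKO testes. The Mps1sKO libraries held both the lowest and the highest value of each gene. *Pdpn* had at most 2 counts in a library, and *Ccl21a* stands on 2 rows of the table and was left out.

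All 8 genes of the pericyte list, which holds genes of the cells that wrap small vessels and their endothelial ligand gene *Pdgfb*, had a log2 fold change above 0, with a median of 0.16 and values from 0.054 to 0.37. None had an unadjusted p below 0.05. Whole-testis RNA does not show which cells the RNA of these genes came from, and this was not tested. The receptor gene *Pdgfrb* was at 17.8 and 14.0 CPM in control and at 19.1 and 19.8 CPM in Mps1sKO testes. *Abcc9* was at 11.5 and 12.5 CPM in control and at 15.0 and 14.1 CPM in Mps1sKO testes. Both genes had Mps1sKO libraries above both control libraries, with adjusted p-values of 0.583 and 0.567 from edgeR. *Rgs5* was at 34.5 ± 0.00290 and 37.6 ± 4.15 CPM (SD, n = 2 each), and *Pdgfb* at 18.5 ± 2.72 and 19.2 ± 1.58 CPM (SD, n = 2 each).

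*Vegfa* is a target of the hypoxia factors. Of the 12 genes of the hypoxia list, which also holds the regulator genes *Hif1a* and *Vhl*, 9 lay above 0, where 50.1% of all tested loci did. The median log2 fold change was 0.077. *Hif1a*, which encodes a hypoxia factor, was at 160 and 136 CPM in control and at 173 and 182 CPM in Mps1sKO testes, a log2 fold change of 0.26 (SE 0.104, unadjusted p = 0.0372 and adjusted p = 0.527, both from edgeR). *Pgk1*, a glycolysis gene, was at 75.2 ± 5.60 and 83.3 ± 5.77 CPM (SD, n = 2 each), and *Vhl*, whose product removes hypoxia factors, at 101 ± 5.97 and 97.6 ± 3.34 CPM (SD, n = 2 each). *Adm*, which encodes adrenomedullin, was at 2.36 ± 0.596 and 3.18 ± 0.523 CPM (SD, n = 2 each). No gene of this list had an adjusted p below 0.05.

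**Figure D4:**
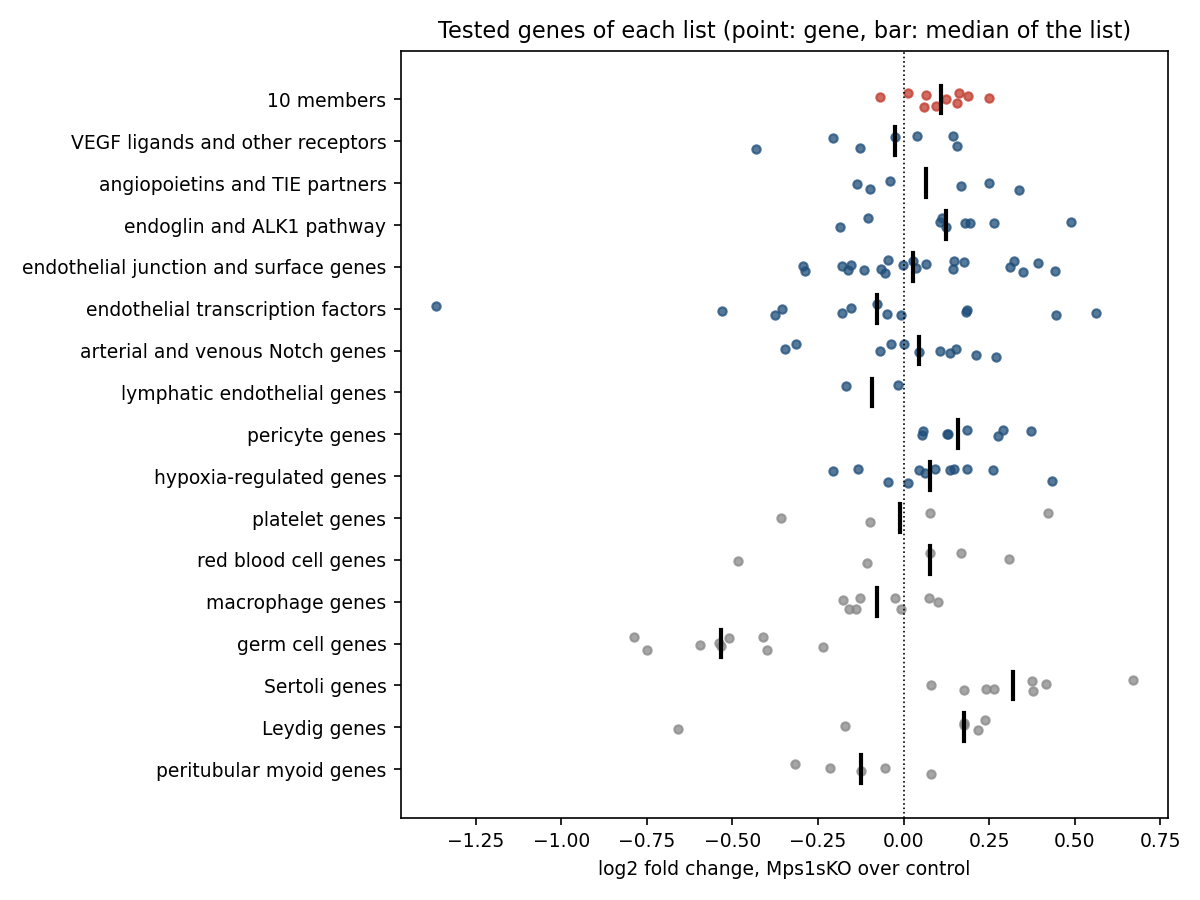
Log2 fold change of Mps1sKO over control (horizontal axis) for each tested gene (point) of the 10 vascular genes (red), of the 8 vascular lists and the hypoxia list (blue) and of 7 marker lists of other cells (grey), with the median of each list (bar). The medians of the red and blue lists lie between −0.09 and 0.16, while the germ cell median is −0.53 and the Sertoli cell median 0.32.

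No marker of other cells in the 7 lists had an adjusted p below 0.05, but unadjusted p-values below 0.05 occurred in the germ cell and Sertoli cell lists, and their part in the values above was not tested. All 9 germ cell genes lay below 0 (median log2 fold change −0.53). Of these, 8 had an unadjusted p below 0.05 from edgeR, where 5.37% of all tested loci were lower by this rule. Their summed level was 1249 and 1528 CPM in control and 1124 and 881 CPM in Mps1sKO testes. All 8 Sertoli cell genes were above 0, with a median of 0.32. Of these, 3 had an unadjusted p below 0.05 from edgeR, where 3.92% of all tested loci were higher by this rule. The Sertoli cell genes summed to 2050 and 1811 CPM in control and 2257 and 2517 CPM in Mps1sKO testes. The median was 0.18 for 6 Leydig cell genes, of which 4 lay above 0 and 2 below, with values from −0.66 (*Star*) to 0.24. It was −0.12 for 5 peritubular myoid genes, of which 1 lay above 0 and 4 below.

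Blood can also carry RNA of these genes, since platelets contain *Vwf* and *Pecam1* transcripts. The summed level of 4 tested platelet genes was 19.6 and 18.5 CPM in control and 19.1 and 18.2 CPM in Mps1sKO testes, and the median log2 fold change was −0.010. Of the 6 genes of the list, *Ppbp* had at most 1 count and *Gp9* at most 3 counts in a library, *Gp6* had 11 to 15, *Itga2b* 72 to 112, *Gp1ba* 77 to 119 and *Pf4*, which macrophages also express, 279 to 317. *Itga2b* was at 4.12 and 3.88 CPM in control and at 3.11 and 3.13 CPM in Mps1sKO testes, a log2 fold change of −0.36 (unadjusted p = 0.0962 from edgeR). The log2 fold changes of *Gp6*, *Pf4* and *Gp1ba* were 0.42, 0.078 and −0.099, so that 2 of the 4 tested genes lay above 0 and 2 below. The part of platelet RNA in the levels of *Vwf* and *Pecam1* was not tested. The 5 tested red blood cell genes summed to 81.1 and 72.5 CPM in control and 77.0 and 88.3 CPM in Mps1sKO testes, and their near-identical globin copies share reads. The 8 macrophage genes summed to 135 and 142 CPM in control and 142 and 128 CPM in Mps1sKO testes, and the median log2 fold change was −0.076. The platelet and macrophage sums overlapped between genotypes, as did those of the red blood cell genes.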

How the data were processed

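RNA was sequenced from whole testes at P10, 2 libraries per genotype, grouped by the title of each sample. The submitters' processing notes name HISAT2 2.0.5, featureCounts, DESeq2 1.16.1 and the build mm10. The strand setting and the annotation are not given in the sources used here, so reads of a gene and of an overlapping gene on the other strand cannot be told apart. All 55450 annotated genes shared with GENCODE M21 had its coordinates. The authors deposited raw counts per gene without normalization. The deposited FPKM values are these counts divided by gene length and by a library size set by the authors, and were used for levels, sums and ratios, with no test. The ratios between genes were not part of the planned comparisons.

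Counts were fitted with edgeR 4.0.16 in R 4.3.3 (filterByExpr, TMM, estimateDisp, glmQLFit and glmQLFTest on genotype), with Benjamini-Hochberg adjustment over 20561 loci. The smallest p of an exact permutation test of 2 libraries against 2 is 0.333. A count of 0 allows up to 3 counts, 0.104 to 0.129 CPM. Counting error alone was at most 10.4% for any of the 10 genes. Alternatives were DESeq2 1.42.0, limma-voom (limma 3.58.1), other scalings and filters, the replicate number as a block and each library left out. Scripts were tested on simulated data.

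The genes and lists were chosen with earlier results of these data known. Named pathway genes are the 2 with the highest mean FPKM and the 2 with the smallest p of each list. *Sox18*, *Acvrl1*, *Angpt1*, *Fpgs*, *Gm29682*, the untested genes and single markers were named after their values were seen. Promoter windows are from RefSeq on GRCm38.p6.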

Additional observations from a re-analysis of the deposited data

How the results depend on the processing

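In the 12 alternatives with fold changes, no vascular gene passed an adjusted p of 0.05 (lowest 0.490), and 9 of 120 fold changes changed sign, none of them of *Cdh5*, *Eng*, *Emcn* or *Vegfa*. The cause was not tested for the shifts below, except that fewer or more loci, or fewer libraries, enter where a filter or an omission says so. With library totals only, the median log2 fold change of the 10 genes was 0.088 and that of *Tie1* was −0.0094. The number of the 10 with an unadjusted p below 0.05, which was 1, was 0 with library totals only, with DESeq2, with at least 10 counts in every library and with the replicate block. List genes with an unadjusted p below 0.05, 8 in all, were 4 with DESeq2 and 3 with the replicate block.

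Over all loci, 6 had an adjusted p below 0.05 and 1912 an unadjusted p below 0.05. These were 34 and 1129 with DESeq2, 390 and 3003 with no filter, and 2 and 1039 with the replicate block. The adjusted p was passed by 3 loci with limma-voom, with at least 10 counts in every library and with annotated genes only. DESeq2 gave an adjusted p for 20683 loci and an unadjusted p for 35262, and more than 20561 loci entered with no filter. *Ttk* missed the adjusted threshold with a log2 fold change of −1.26 with the DESeq2 size factors, limma-voom, annotated genes and the replicate block, and of −1.27 with at least 10 counts (adjusted p 0.0504 to 0.224). The replicate block also gave −0.0042 for *Tie1*. The labels do not say that a replicate number marks a shared litter or day, and the deviations of same-numbered libraries had a correlation of −0.19 over tested loci. A crossed replicate block was chosen after seeing the data. An unadjusted p below 0.05 was then found for 2 of the 10 genes, 19 of the 89 tested list genes and 3793 of all 20561 loci. With this block 550 loci had an adjusted p below 0.05.

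With each library left out in turn, where the lone library is assumed to vary like the others, the median of the 10 genes lay between 0.072 and 0.15, the number with an unadjusted p below 0.05 between 0 and 1, the number whose groups do not overlap between 5 and 9, the list genes between 2 and 9, and all loci between 8 and 111 (adjusted) and 726 and 2521 (unadjusted). The log2 fold changes lay between −0.242 and 0.223 for *Tie1*, −0.058 and 0.32 for *Vwf*, −0.0065 and 0.19 for *Kdr*, −0.016 and 0.15 for *Tek*, −0.16 and 0.016 for *Pecam1*, and −0.056 and 0.16 for *Flt1*. The low count of 2 list genes and of 726 loci came without control replicate 2. Leaving out control replicate 1 gave 111 loci with an adjusted p below 0.05, leaving out control replicate 2 gave 40, and leaving out Mps1sKO replicate 2 gave 21. Groups of 1 library overlap less by construction: groups did not overlap for 8 of the 10 genes and 76.3% of all loci without Mps1sKO replicate 1, 9 and 72.5% without Mps1sKO replicate 2, 5 and 70.7% without control replicate 1, and 6 and 63.2% without control replicate 2.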
